A study of Mus musculus with 6 samples.

Results

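The genes described here are the 4 Atg4 proteases, Atg4a, Atg4b, Atg4c and Atg4d, and 5 genes of the ATG8 family on which they act, Map1lc3a, Map1lc3b, Gabarap, Gabarapl1 and Gabarapl2. These 9 genes were taken by gene symbol out of 19938 genes with a probe set of their own, of which 12029 were tested. Where a gene had more than 1 probe set, the set that stood for it was chosen by its mean signal over all 6 arrays, the highest being used. The family was itself proposed with the difference of Atg4c in these data already known, so that difference is given as a measured value and not as independent evidence. All 9 genes lay at or above the filter on level, a mean log2 signal of 7.5025 over the 6 arrays.

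The arrays measured RNA of unsorted marrow cells washed from femurs and tibiae, 3 arrays labelled wild type and 3 labelled diabetic. Every mouse is labelled as a male of 10 weeks on the BKS background, with a strain name that carries Leprdb, the db allele of the leptin receptor gene Lepr and a standard model of obesity with type 2 diabetes. The labels mark this name +/+ for wild type and -/- for diabetic mice, give no treatment, and do not say whether an array held 1 mouse or several, so p-values here speak only to the variation seen among these 6 arrays, part of which may be technical. The change in Lepr is carried in every cell of the animal from birth, and each array read a mixture of cell types. In such a mixture, fewer cells of a type and less RNA per cell cannot be told apart.

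Sex-linked genes went against the label male on 5 of the 6 arrays. Xist, the RNA that silences an X chromosome in female cells, had a log2 signal of 7.04 on wild type array 1 and of 12.65 to 12.84 on the other 5. The Y-linked genes Eif2s3y, Kdm5d and Uty lay between 8.44 and 9.34 on wild type array 1 and between 4.02 and 6.27 on the other 5. For the 9 genes of the family, values without wild type array 1 are therefore given beside the main ones. Differences of other single genes and of the marker lists are given only with that array included. Marrow markers were set against the filter, which is on the mean of the 6 arrays. At or above it lay 7 of 7 late neutrophil and 4 of 4 promyelocyte markers. So did 7 of 8 B cell precursor and 4 of 4 platelet lineage markers. As 4 of 4 skeletal muscle markers did so too, passing it does not show that a cell type was present. The list means were 13.29 to 13.48 over the arrays for late neutrophils and 7.94 to 8.12 for skeletal muscle. The 6 arrays correlated with each other at 0.979 to 0.994 over the genes tested, and no columns were identical.

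Autophagy encloses cell contents in a double membrane and delivers them to the lysosome. ATG8 proteins are made as precursors, and ATG4 cysteine proteases cut their tails to expose a glycine that is then joined to a membrane lipid. The same proteases can later release the ATG8 protein from the lipid. In marrow the pathway is best known for clearing mitochondria from maturing red cells and for keeping blood stem cells in good order.

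Atg4c was the 1 gene of the family that rose in diabetic marrow. Its RNA was 1.68-fold higher, a log2 difference of 0.75 ± 0.07 (SE, n = 3 per group). The other 3 proteases and all 5 ATG8 genes did not pass the test, with log2 differences between -0.04 and 0.07. In limma's fit with Benjamini-Hochberg adjustment over all genes, 1 of 9 members passed an adjusted p of 0.05, against 0.432% of all genes tested in either direction and 0.0998% for a rise. With that gene known in advance to pass, nothing is read from this count. The groups did not overlap for that 1 gene, where 12.4% of all genes tested showed such a separation.

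The promoter of Atg4c is shown because this is the gene whose RNA differed. The window lies on the plus strand of GRCm38.p6 at chr4:99193684-99193983 and runs from 250 bases before to 50 after an annotated start (RefSeq), with CpG pairs in capitals.
Atg4c: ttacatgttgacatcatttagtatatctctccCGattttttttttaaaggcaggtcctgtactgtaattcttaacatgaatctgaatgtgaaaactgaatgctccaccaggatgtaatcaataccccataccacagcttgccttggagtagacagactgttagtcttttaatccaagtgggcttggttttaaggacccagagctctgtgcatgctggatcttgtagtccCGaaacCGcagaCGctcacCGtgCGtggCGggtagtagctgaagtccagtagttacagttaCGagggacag
This window held 8 CpG pairs, and a second annotated start 213 bases further on had 30 in its window. The median over 32851 promoter windows was 7. Of the 9 genes, 8 had a window, 10 windows in all. The most CpG pairs, 55, stood before Atg4b and the fewest, 3, before the first start of Atg4a. The letters CACGTG, the core of an E-box to which TFEB and clock factors bind, were searched on both strands and were in 0 of the 10 windows and in 7.15% of all windows. TGTTTAC, a core of forkhead sites, was in 0 of the 10 and in 3.65% of all. CCAAT, the box bound by NF-Y, was in 2 of the 10, those of Atg4d and Atg4a, and in 37.41% of all. These matches describe letters in short windows only.

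Atg4c, on chromosome 4, encodes a protease whose full-length form cuts ATG8 precursors weakly in the test tube. Its log2 signal was 7.33, 7.35 and 7.20 on wild type arrays 1, 2 and 3 and 7.96, 8.13 and 8.03 on diabetic arrays 1, 2 and 3. All diabetic values lay above all wild type values, and the gap between the highest wild type and the lowest diabetic array, 0.61, was wider than the spread within either group, 0.15 and 0.17. The group means were 7.30 ± 0.08 and 8.04 ± 0.09 (SD, n = 3 each). The 95% interval of the difference ran from 0.58 to 0.91, or 1.495-fold to 1.88-fold. Its rise ranked 10 by size among 12029 genes (limma, Benjamini-Hochberg adjusted p = 0.0116). An exact permutation test of 3 against 3 arrays cannot go below a two-sided p of 0.1.

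The level of Atg4c bears on that value. Its wild type mean was 0.21 below the filter and its diabetic mean 0.54 above it, so the gene entered the test only through its diabetic arrays. With no filter on level, over all 21789 probe sets with 1 symbol, the adjusted p of Atg4c was 0.0116 in limma, where 0.248% of probe sets passed. The call was lost over all 35556 probe sets (limma, adjusted p = 0.0962), and a filter at the 60th percentile removed the gene. Without wild type array 1 the log2 difference of Atg4c was 0.76 ± 0.08 (SE) and the adjusted p was 0.0112 in limma. Without diabetic array 1, 2 or 3 the difference was 0.79, 0.70 and 0.75, but the adjusted p in limma rose to 0.0604, 0.0757 and 0.0620.

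**Figure D1:**
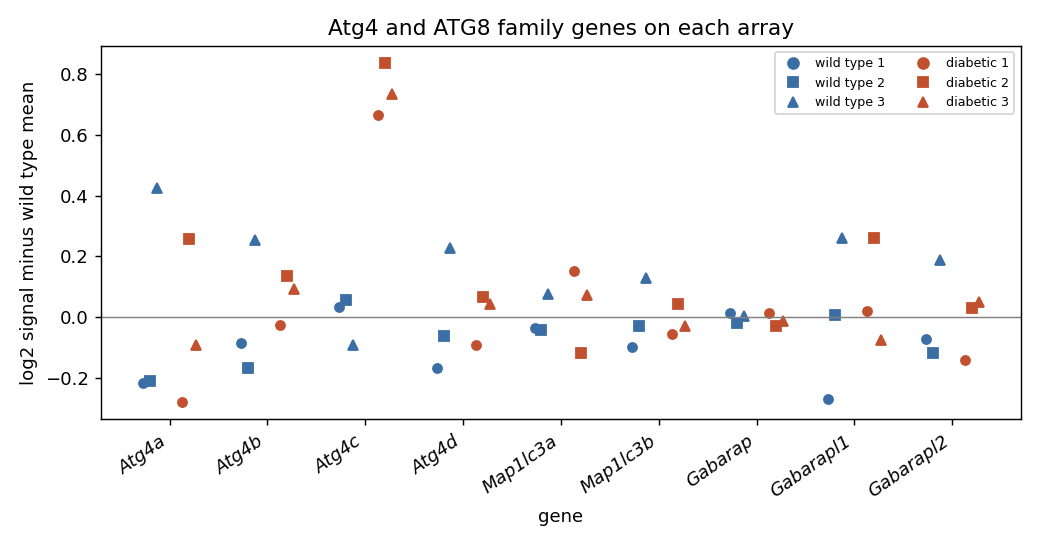
Log2 signal of each of the 9 genes minus its wild type mean, 1 point per array, blue for wild type and red for diabetic, with marker shape for the replicate number. The 3 diabetic points of Atg4c lie 0.67 to 0.84 above its wild type mean, while the groups of the other 8 genes overlap.

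Atg4b encodes the protease with the broadest activity on ATG8 precursors. Its log2 signal was 9.11, 9.02 and 9.44 for wild type and 9.17, 9.33 and 9.28 for diabetic mice. The diabetic values lay inside the wild type range. The difference was 0.07 ± 0.11 (SE, n = 3 per group), with a 95% interval from -0.19 to 0.33. At its upper end that interval reaches a 1.25-fold rise.

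Atg4a, an X-linked gene, encodes a protease that prefers the GABARAP branch. Its log2 signal was 10.67, 10.68 and 11.31 for wild type and 10.60, 11.14 and 10.79 for diabetic mice. It varied most of the 9 genes within a group, by 0.64 among wild type and 0.54 among diabetic arrays, and the groups overlapped. The difference was -0.04 ± 0.20 (SE), with a 95% interval from -0.49 to 0.42. Without wild type array 1, the array with low Xist, it was -0.15 ± 0.21 and without wild type array 3 it was 0.17 ± 0.14, so even its sign rested on single arrays.

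Atg4d encodes the fourth protease, which like Atg4c can be shortened by caspases. Its log2 signal was 9.51, 9.61 and 9.90 for wild type and 9.58, 9.74 and 9.72 for diabetic mice. The groups overlapped, with a difference of 0.01 ± 0.11 (SE, n = 3 per group) and a 95% interval from -0.24 to 0.25. Without wild type array 1 it was -0.08 ± 0.10.

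The ATG8 substrates fall into the LC3 and GABARAP branches, the first known for membrane growth and cargo capture and the second for later steps up to fusion. Map1lc3b, the LC3 form most often used as a marker of autophagosomes, had a log2 signal of 11.60, 11.67 and 11.82 for wild type and 11.64, 11.74 and 11.66 for diabetic mice. Its groups overlapped, and the difference was -0.01 ± 0.07 (SE), with a 95% interval from -0.19 to 0.16. Map1lc3a, a second LC3 form, had 8.23, 8.22 and 8.34 for wild type and 8.41, 8.14 and 8.33 for diabetic mice. Diabetic arrays were both its highest and its lowest, and the difference was 0.04 ± 0.08, with a 95% interval from -0.15 to 0.23.

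Gabarap, the founding member of its branch, was the steadiest of the family. Its log2 signal was 13.15, 13.12 and 13.14 for wild type and 13.15, 13.11 and 13.12 for diabetic mice, a range of 0.04 over all 6. Its difference was -0.01 ± 0.05 (SE, n = 3 per group), and its 95% interval, from -0.13 to 0.12, was the narrowest of the 9.

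Gabarapl1, which responds to starvation in many tissues, had a log2 signal of 9.40, 9.68 and 9.93 for wild type and 9.69, 9.93 and 9.59 for diabetic mice. All diabetic values lay within the wild type range, and the difference was 0.07 ± 0.14 (SE), with a 95% interval from -0.26 to 0.39. Gabarapl2, also known as GATE-16, had 12.25, 12.21 and 12.51 for wild type and 12.19, 12.35 and 12.37 for diabetic mice. Its groups overlapped, with a difference of -0.02 ± 0.10 and a 95% interval from -0.24 to 0.20.

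Without wild type array 1, the log2 differences of Atg4b, Map1lc3a, Map1lc3b, Gabarap, Gabarapl1 and Gabarapl2 were 0.02, 0.02, -0.06, -0.002, -0.065 and -0.06, and none of these genes passed. Missing the threshold does not show that their levels were equal. At the interval ends, a change of Map1lc3b or Gabarap beyond 1.12-fold upward lay outside the interval, while for Atg4a a rise of up to 1.33-fold and for Gabarapl1 one of up to 1.31-fold lay within it.

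Atg4a, Map1lc3b and Gabarapl2 each had 2 probe sets with that 1 symbol, and in each pair the sets are numbered among sets of different chromosomes. For each of the 3 genes, 1 set is numbered among sets of the gene's own chromosome, and the other among sets of another chromosome. The brighter set of Atg4a is of the second kind: its 6 nearest neighbours by number belong to genes of chromosome 3. Both Atg4a sets moved together, the other set giving 10.62, 10.62 and 11.23 for wild type and 10.57, 11.09 and 10.72 for diabetic mice. For Map1lc3b the dimmer set has neighbours on chromosome 14, and its difference was -0.02 ± 0.08 (SE), close to that of the brighter set. Whether these sets read processed copies of the genes in the genome was not tested.

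The sets of Gabarapl2 disagreed in sign. The brighter set, with neighbours on chromosome 5, gave the values above. The dimmer set, numbered among genes of chromosome 8, where Gabarapl2 lies, had log2 signals of 6.96, 7.18 and 6.93 for wild type and 7.38, 7.26 and 7.04 for diabetic mice. These groups overlapped, and its difference was 0.20 ± 0.10 (SE), which did not pass over all 21789 probe sets (limma, Benjamini-Hochberg adjusted p = 0.889). Both Gabarapl2 values are therefore uncertain as a measure of the gene.

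**Figure D2:**
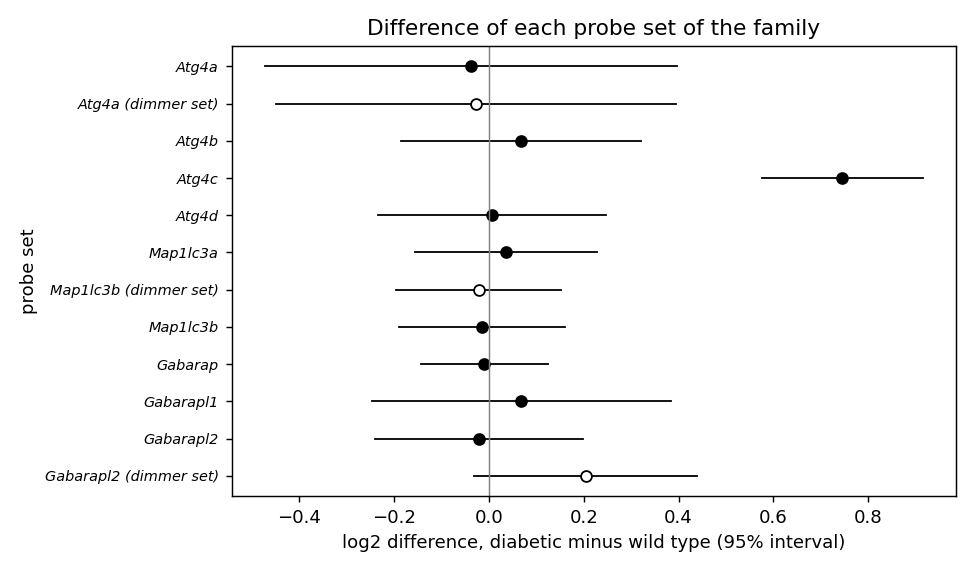
Log2 difference, diabetic minus wild type, of all 12 probe sets of the family, with 95% intervals from limma over all 21789 probe sets with 1 symbol. Filled points are the sets that stood for a gene and open points the dimmer second sets, and only the interval of Atg4c, 0.58 to 0.91, leaves out 0.

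Apart from Atg4c, most of the family shared a pattern over the arrays that did not follow the groups. Wild type array 3 was the highest of the 6 for 6 of the other 8 genes, Atg4a, Atg4b, Atg4d, Map1lc3b, Gabarapl1 and Gabarapl2, against 25.1% of all genes tested. For Atg4c the same array was the lowest. It was also the lowest, at 6.93, for the dimmer Gabarapl2 set, numbered among sets of that gene's own chromosome. Gabarapl2 is counted above by its brighter set only. The mean of red cell precursor markers went the same way. Over 7 of 8 listed erythroid markers the mean log2 signal was 11.45, 11.66 and 12.08 for wild type and 11.61, 11.99 and 11.66 for diabetic mice. Single markers were split: Klf1, Gata1, Epor and Ermap were highest on wild type array 3, but Alas2, Slc4a1 and Tfrc on diabetic array 2. Wild type array 3 and diabetic array 2 were the highest for the list mean and also for Atg4a, Atg4b, Atg4d, Map1lc3b and Gabarapl1. The 6 genes highest on wild type array 3 were picked out after their values were seen, and Gabarap and Map1lc3a did not share the pattern. All 7 erythroid markers were above the filter. The part of red cell precursors in the spread of these genes was not tested.

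Other cell types moved over the arrays too. The platelet list mean was 11.13 on wild type array 3 against 10.24 to 10.75 on the other arrays, and the B cell precursor list was lowest there, at 9.74, against 9.80 to 10.86. Without wild type array 3 the log2 differences of Atg4b, Gabarapl1 and Atg4d were 0.19 ± 0.07, 0.20 ± 0.12 and 0.12 ± 0.08 (SE), all larger than with it, and none passed. Atg4b came nearest (limma, Benjamini-Hochberg adjusted p = 0.409).

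**Figure D3:**
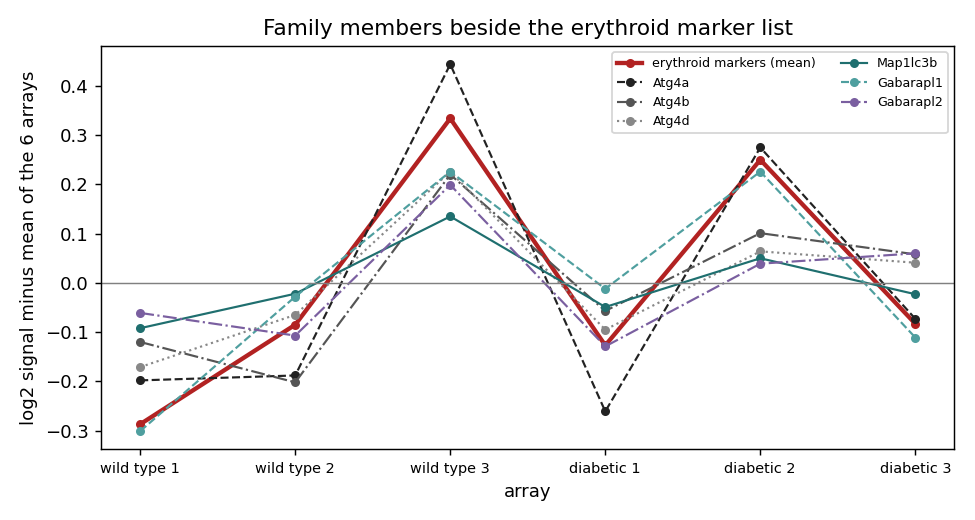
Log2 signal minus the mean of the 6 arrays for 6 family genes and for the mean of 7 erythroid markers, with lines joining the values of 1 item over arrays that have no order. Gabarapl2 is drawn from its brighter set, and its dimmer set was lowest on wild type array 3. All 7 lines are highest on wild type array 3, with diabetic array 2 level with it for Gabarapl1, and there the erythroid list is 0.33 and Atg4a 0.44 above its own mean. Within the erythroid mean, Alas2, Slc4a1 and Tfrc were highest on diabetic array 2.

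The marker lists were also set side by side by group, since Atg4c was read in a mixture of cells. Of the markers on 10 lists 0 passed an adjusted p of 0.05 in limma, where 0.432% of all genes tested did. The erythroid list mean was 11.73 ± 0.32 for wild type against 11.75 ± 0.21 for diabetic mice (SD, n = 3 each), and the late neutrophil list was at 13.37 ± 0.07 against 13.41 ± 0.07. The B cell precursor list was at 10.38 ± 0.58 against 10.01 ± 0.19, with overlapping groups, and all 7 of its tested markers had differences below 0, with a median of -0.45. The monocyte and macrophage list had near-equal means, 9.83 ± 0.06 against 9.82 ± 0.05, but its markers differed both ways: 4 of 8 had an unadjusted p under 0.05, against 7.18% of all genes tested, and 5 of 8 did not overlap, against 12.4%. Among them were Mrc1, a mannose receptor, at -0.34 ± 0.09 (SE) and Cd163, a haemoglobin scavenger receptor, at 0.34 ± 0.06. These 2 genes, and Cd4 below, were picked out after their values were seen. The mean of the stroma list lay at 8.48 to 8.54 for wild type and 8.40 to 8.46 for diabetic mice and did not overlap, the lower values being diabetic. Only 3 of its 4 markers were at or above the filter. Each of these 3 overlapped between groups, with 1 difference above 0 and 2 below. The T cell list ran from 8.47 to 8.98 over all arrays. Of its 4 markers Cd4, a co-receptor also found on some myeloid cells, was at -0.53 ± 0.09 (SE) with groups that did not overlap (limma, Benjamini-Hochberg adjusted p = 0.0974), while Cd3e, Cd3g and Cd8a overlapped, at -0.06, -0.02 and 0.16. The adipocyte list ran from 6.95 to 7.14 and the skeletal muscle list from 7.94 to 8.12. The part of the cell mixture in the difference of Atg4c was not tested.

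The rest of the pathway gave no further calls. Of 74 further autophagy genes in 8 lists by role, 72 were tested, and limma's fit with Benjamini-Hochberg adjustment called 0 of them higher and 0 lower. Over all genes tested 0.432% were called in either direction. At so small a share, counts of 0 here and in the lists below do not set the pathway apart from other genes. At an unadjusted p under 0.05 there were 3 of 72, a share below the 7.18% of all genes tested. The groups did not overlap for 6 of 72, against 12.4% of all genes tested. The median difference of all 72 was 0.02, against 0.005 over all genes tested. The rest of the 74 were not analysed here.

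At the start of the pathway, the kinase complex around ULK1 had 0 of 5 members past the threshold, and Atg13, its regulatory subunit, had the smallest p with a log2 difference of -0.15 ± 0.09 (SE, n = 3 per group). The class III lipid kinase complex, which marks the new membrane, had 0 of 8, with Pik3c3, its catalytic subunit, at -0.12 ± 0.08. The 7 genes that join ATG8 proteins to lipid, the step after ATG4 cutting, also had 0 past the threshold. Among them Atg7, the activating enzyme, was at 0.12 ± 0.07. Of 10 genes of membrane supply 0 passed, and Wipi1, which binds the lipid mark, was at 0.17 ± 0.11.

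Of 11 cargo receptors tested 0 passed, with Retreg1, a receptor for endoplasmic reticulum, at 0.13 ± 0.08. Of 8 genes of fusion with the lysosome 0 passed and 2 had an unadjusted p under 0.05, against 7.18% of all genes tested. Snap29, a fusion protein, had a log2 signal of 10.10, 10.04 and 9.86 for wild type and 9.82, 9.80 and 9.78 for diabetic mice. Its partner Stx17 had 9.34, 9.36 and 9.41 for wild type and 9.53, 9.51 and 9.49 for diabetic mice. Neither overlapped between groups, as was so for 12.4% of all genes tested. The partners differed in opposite directions, by -0.20 ± 0.07 and 0.14 ± 0.05 (SE), and neither passed (limma, Benjamini-Hochberg adjusted p = 0.602 and 0.640). Of 9 lysosome genes tested 0 passed, with Neu1, a sialidase, at 0.12 ± 0.07.

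Of 14 genes of upstream control 0 passed. Ddit4, an inhibitor of the growth kinase mTORC1 that glucocorticoids and low oxygen induce, had the largest difference of the 72. Its log2 signal was 8.95, 8.81 and 9.03 for wild type and 9.34, 9.37 and 9.81 for diabetic mice. The groups did not overlap, as was so for 12.4% of all genes tested. The difference was 0.58 ± 0.13 (SE), which did not pass (limma, Benjamini-Hochberg adjusted p = 0.226).

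**Figure D4:**
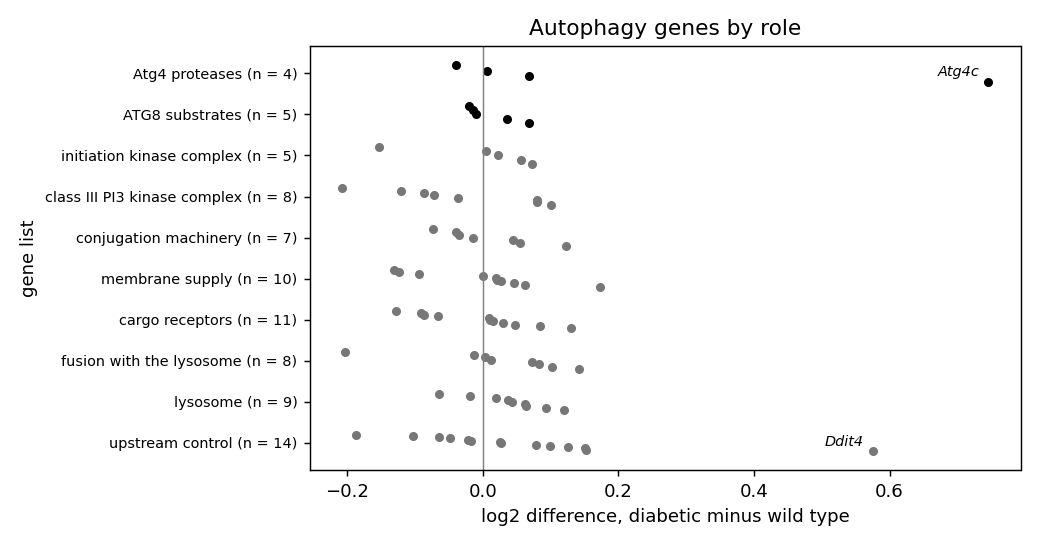
Log2 difference, diabetic minus wild type, of the 9 family genes in black and of 72 other autophagy genes in grey, 1 point per gene, by role. Atg4c at 0.75 and Ddit4 at 0.58 stand to the right, and the other points lie between -0.21 and 0.17.

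Atg4c lies on the same chromosome as Lepr, the gene altered in the diabetic mice, 41 entries before it in the RefSeq gene order of GRCm38.p6. The measured genes around Atg4c and up to Lepr, 20 in number, were read from the fit with no filter on level. Of these, 0 passed an adjusted p of 0.05 in limma, where 0.248% of all probe sets with 1 symbol did. An unadjusted p under 0.05 was found for 3, against 5.99% of those probe sets. Those 3 were Ror1, a receptor kinase, at 0.22 ± 0.07 (SE, n = 3 per group), Pgm1, an enzyme of sugar metabolism, at 0.20 ± 0.08, and Raver2, an RNA-binding protein, at -0.14 ± 0.06. The median difference of all 20 was 0.04. Only 9 of the 20 lay at or above the filter on level, Pgm1 among them. Ror1, Raver2 and Foxd3, with means of 7.21, 7.03 and 7.34 over the 6 arrays, lay below it, as did Lepr. Ak4, a mitochondrial adenylate kinase, had the largest difference of the 20, 0.33 ± 0.22, but its brighter probe set is numbered among sets of chromosome 2. Its dimmer set, numbered among sets of chromosome 4, gave 7.70, 7.64 and 7.72 for wild type and 7.98, 7.80 and 8.07 for diabetic mice. Those groups did not overlap, the unadjusted p was also under 0.05, and the difference was 0.26 ± 0.08 (SE), which did not pass (limma, Benjamini-Hochberg adjusted p = 0.63). The nearest measured genes on each side, Usp1 and Foxd3, were at -0.10 ± 0.09 and 0.07 ± 0.07, and Lepr itself was at -0.11 ± 0.08 on a dim probe set, 5.80 ± 0.14 against 5.69 ± 0.04 (SD). Which part of Lepr that probe set reads is not given here, so it does not check the genotype. The genotype at Lepr and any stretch of chromosome inherited with it cannot be told apart from the diabetic state in this design.

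**Figure D5:**
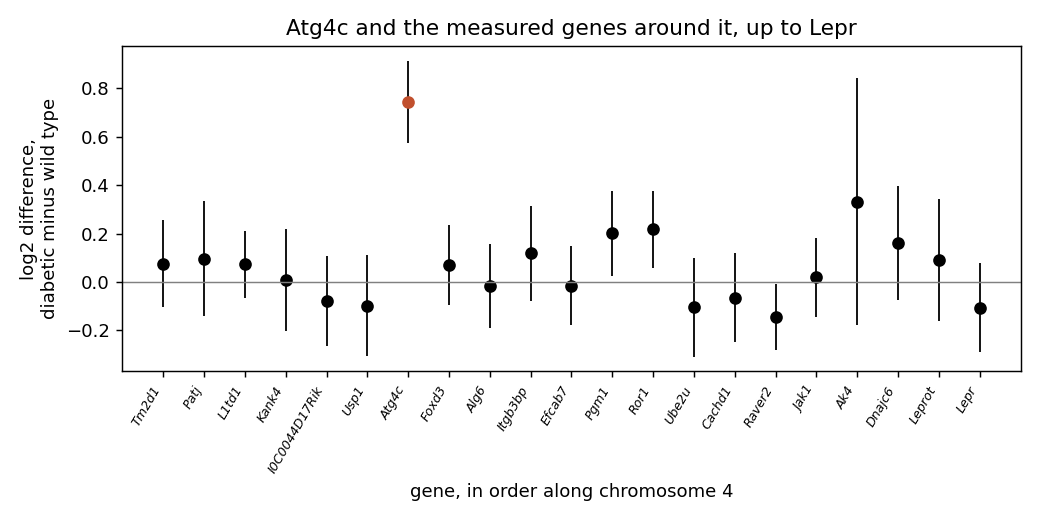
Log2 difference, diabetic minus wild type, of Atg4c in red and of 20 measured genes around it in black, in order along chromosome 4 with even spacing, with 95% intervals from limma. Atg4c stands at 0.75, and the others lie between -0.14 and 0.33, the upper end being Ak4 on a set numbered among chromosome 2, without which they end at 0.22. The dimmer Ak4 set, numbered among sets of chromosome 4 and not drawn, was at 0.26. Of the 20 genes, 9 lay at or above the filter on level.

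The genes most like Atg4c over the 6 arrays were Tspan15, a membrane protein of the tetraspanin family, Cdc73, a subunit of the PAF1 complex, Snx31, a sorting nexin, Arl15, a small GTPase, and Ccl6, a chemokine of myeloid cells. Their Pearson correlations with Atg4c were 0.991, 0.990, 0.990, 0.988 and 0.987, and their Spearman values were 0.943, 0.714, 1, 0.943 and 1, over 6 arrays that share the division into 2 groups. At 0.95 or above there were 38 of 12028 genes. In each of the 5 genes the diabetic arrays lay above the wild type arrays, as with Atg4c. They were chosen for following Atg4c, whose groups lie apart, so this separation came with the choice and is no further result. Over all genes tested 12.4% had groups that did not overlap, in either direction. Tspan15 passed the test, with a log2 difference of 0.49 ± 0.07 (SE). The other 4 did not: Cdc73 was at 0.14 ± 0.05, Snx31 at 0.20 ± 0.06, Arl15 at 0.19 ± 0.05 and Ccl6 at 0.34 ± 0.06. Like Atg4c, Snx31 had a wild type mean below the filter, 7.48, and entered the test only through its diabetic arrays.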

How the data were processed

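RNA of mouse marrow was measured on 6 single-colour Affymetrix arrays, 3 per group, and groups were taken from the sample labels. Each probe set carried a deposited log2 signal. Per the submitters' processing notes, RMA and Affymetrix Expression Console were used. RMA equalises the arrays' distributions, so a shift shared by most genes cannot be seen. Their versions and a genome build were not given in the sources used here. Of 35556 probe sets, 21789 had 1 symbol in the platform annotation, 1621 more than 1, and 12146 were unnamed. Of the 21789, 21698 matched RefSeq (GRCm38.p6) and 0 changed name. The brightest set stood for a gene, and 12029 of 19938 genes had a mean at or above 7.5025, the 40th percentile of sets with a symbol. Array medians ran from 7.67 to 7.73. Precision is limited by the number of arrays.

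The comparison used limma 3.58.1 (lmFit, eBayes) under R 4.3.3, without covariates, with Benjamini-Hochberg adjustment over all genes tested and a threshold of 0.05. Plots came from matplotlib 3.10.9 under Python 3.11.15. The fit was tested on simulated data for this comparison, with 12029 genes. It recovered 86% of genes raised by 0.75 and 98% of those raised by 1, and also called 9 unchanged genes. Noise was drawn for each gene on its own, so patterns that genes share over the arrays were absent. These shares therefore need not hold for the measured arrays. Members and gene lists were chosen with earlier results of these data known. Genes were named by a rule: all members, the member of each autophagy list with the smallest p and any past the threshold, neighbours of Atg4c on its chromosome past the threshold or with the smallest p (2), the 5 genes most correlated with Atg4c, and Lepr. Stx17, Raver2, Usp1, Foxd3, Ak4, Mrc1, Cd163, Cd4, Cd3e, Cd3g, Cd8a, the single erythroid markers and the sex-linked genes were added after their values were seen. Alternatives covered the filter, normalization, probe sets, variance model, array weights, a replicate block and leaving out each array. One further allele of the strain names is not reported here.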

Additional observations from a re-analysis of the deposited data

How the results depend on the processing

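The log2 difference of Atg4c stayed between 0.64 and 0.79 in all 14 alternatives that tested it, with adjusted p in limma from 6.25e-05 to 0.0962, and the call was kept in 9. Both lower ends, 0.64 and 6.25e-05, came from the fit with array weights, 1 of the 9, which did not converge. Another of the 9, without wild type replicate 2, kept the call narrowly (limma, adjusted p = 0.0494). The call was lost with all probe sets (0.75, adjusted p = 0.0962), with a replicate block (0.75, adjusted p = 0.0604) and without diabetic replicate 1, 2 or 3, and leaving out 1 array gave 0.70 to 0.79. The count of members past the threshold, 1, became 0 in these and with the filter at the 60th percentile, and leaving out single arrays gave 0 to 1. Of autophagy pathway genes 0 passed except with array weights, which called 12. That fit stopped before its weights had converged and gave the second wild type array a weight of 11.7, and it also called 1878 genes in all. The count of all genes, 52, was 2 with the replicate block, 1 with all probe sets and 3 to 70 when 1 array was left out, with 13 without wild type replicate 2 and 5, 3 and 12 without diabetic replicate 1, 2 and 3.

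Differences of the other 8 members changed sign in some settings, all without a call. With further quantile normalization Atg4d was at -0.0078 and Gabarap at 0.0001. With array weights Atg4a was at 0.0119, Gabarap at 0.0213 and Gabarapl2 at 0.0215, and with the mean of probe sets Gabarapl2 was at 0.0917. Leaving out 1 array gave -0.1861 to 0.1735 for Atg4a, -0.0161 to 0.1944 for Atg4b, -0.0772 to 0.1213 for Atg4d, -0.0220 to 0.1123 for Map1lc3a, -0.0638 to 0.0498 for Map1lc3b, -0.0208 to 0.0005 for Gabarap, -0.0650 to 0.1989 for Gabarapl1 and -0.0792 to 0.0738 for Gabarapl2. Whether the replicate numbers pair the arrays could not be decided. Deviations of same-numbered arrays from their group means correlated at 0.327, -0.043 and -0.055, and those of differently numbered arrays at -0.311 to 0.267. With 3 arrays per group the deviations within a group add up to 0, so these values depend on each other. Atg4c, the dimmer Gabarapl2 set, Snx31 and some neighbours of Atg4c lie near or under the filter on level, where signal over background is lowest. Ror1, Raver2, Foxd3 and Lepr are among those neighbours.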
